A study of Rattus norvegicus with 47 samples.

Results

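Liver nodules, growths large enough to be dissected that the labels keep apart from adenomas and carcinomas, were compared with the liver tissue that surrounded them. The comparison holds 12 of the 47 arrays of the series, chosen by their labels: 5 arrays of the group Nodule, which the source names call Minitumor, and 7 frozen arrays of surrounding tissue. All animals were male Wistar rats, and every group used here, surrounding liver included, shared the same treatments. At the age of 4 weeks each rat received the liver carcinogen N-nitrosomorpholine once, at 250 mg/kg. After 3 weeks without treatment the tumour promoter phenobarbital was given in the drinking water at 50 mg/kg per day, over a period of at most 17 months. The surrounding liver is therefore carcinogen-exposed, phenobarbital-treated tissue and not untreated liver. Nodules 1 and 2 came from animal 10, nodules 3 and 4 from animal 11 and nodule 5 from animal 14. Surrounding arrays 1 and 2 came from animal 10, array 3 from animal 11, array 4 from animal 14, array 5 from animal 21, and arrays 6 and 7 from animal 23. Nodules of 1 animal share a liver, so the 5 nodules stand for 3 animals.

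In this classical initiation and promotion model, single initiated hepatocytes grow out into foci and nodules that are marked by the placental glutathione transferase Gstp1 and by gamma-glutamyl transferase. Dividing cells express a shared set of mitotic genes late in the cell cycle, many of them through the CCAAT box and the cell cycle homology region of their promoters. Serine synthesis feeds one-carbon metabolism and the making of nucleotides, and its genes respond to the amino acid stress factor ATF4. The factor NRF2 controls antioxidant, glutathione and NADPH-producing genes.

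Values are log2 levels of 1 probe set for each of 14217 genes, so a difference of 1 is a 2-fold difference. The main test was a limma fit over all 26 frozen arrays of the study, with tissue group and animal as terms. It takes the spread and the animals' levels also from 6 adenomas and 8 carcinomas (4 of them labelled as carrying a beta-catenin mutation). A gene is said to have risen or fallen where its adjusted p in this fit was under 0.05, and ± beside a change is its standard error. A second fit, called the 12-array fit, used the nodules and surrounding liver alone, with animal as a term. A matched fit replaced the animal by the control set that the labels give each lesion. The own array of a nodule is the surrounding array of its control set: surrounding 1 for nodules 1 and 2, surrounding 3 for nodules 3 and 4, and surrounding 4 for nodule 5.

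The 12 arrays had medians of 5.49 to 5.59 and correlated with the other frozen arrays at a mean r of 0.966 to 0.979. The hepatocyte gene for albumin, Alb, stood at 15.05 to 15.10 in nodules and 15.03 to 15.13 in surrounding liver, at the top of the array's range. Some arrays stood apart before any comparison. Surrounding arrays 2, 5 and 7 belong to the control sets of carcinomas, and the hepatocyte factor Cebpa was at 10.64, 10.68 and 10.54 in them against 9.17 to 9.52 in the other 4. Nodule 4 held the biliary keratin Krt19 at 10.60, where the other nodules ranged from 7.31 to 7.85.

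In the main fit 27 genes rose (0.19% of those tested) and 5 fell (0.0352%), 12 of the rises and 0 of the falls by at least 2-fold. Among the genes that rose were some for mitotic proteins (Cdk1, Mki67, Ccnb2, Kif20a, Kif22, Zwilch), for the supply of serine, polyamines and nucleotides (Psat1, Slc1a4, Sms, Ctps1), for tubulins (Tubb6, Tubb4b) and for NADPH and glucuronide metabolism (Tkt, Ugdh). The other 13, among them Ica1, Tusc3, Ttc39a and Nup205, belong to none of these groups, which were drawn up with the values known. Each of the 32 genes lay on the same side of the own surrounding array in 5 of 5 nodules, against 9.16% of all genes above and 11.3% below. Of them 15 rises and 4 falls had groups that did not overlap, every nodule beyond every surrounding array, which 1.53% of all genes showed upward and 0.816% downward. The 32 were called from the same arrays, so both counts follow in part from that choice and are no separate support.

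Of the 40 measured genes of the mitosis list 4 rose. Cdk1, the kinase whose activation starts mitosis, was at 6.95, 7.02, 6.95, 7.12 and 5.34 in nodules 1 to 5, and at a lowest 4.01, median 5.33 and highest 6.04 in surrounding liver. Nodules 1 to 4 lay above every surrounding array, while nodule 5 fell within their range but above the 4.42 of its own array. The rise was 1.45 ± 0.27 (2.73-fold, adjusted p = 0.0315) in the main fit and 1.26 ± 0.16 (adjusted p = 0.00685) in the 12-array fit. Mki67, the antigen used to count cycling cells, was at 6.57, 6.39, 6.54, 6.42 and 4.43 in nodules against 3.93, 4.77 and 5.24 (lowest, median and highest) in surrounding liver. Again only nodule 5 overlapped the surrounding arrays, and it stood 0.49 above its own array where the others stood 1.18 to 1.80 above theirs. Mki67 rose by 1.33 ± 0.25 (2.52-fold, adjusted p = 0.0315).

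The 200 bases before the start of 3 mitotic genes that rose are shown because both elements of late cell cycle promoters can be read in them (RefSeq, build GRCr8, 5′ to 3′ on the gene's strand). Capitals mark TTTGAA, the cell cycle homology region, and CCAAT, the box bound by NF-Y, or their reverse complements TTCAAA and ATTGG. Cdk1 lies at chr20:19265093-19265292 on the plus strand, Mki67 at chr1:199952594-199952793 and Kif22 at chr1:191080879-191081078, both on the minus strand.
Cdk1: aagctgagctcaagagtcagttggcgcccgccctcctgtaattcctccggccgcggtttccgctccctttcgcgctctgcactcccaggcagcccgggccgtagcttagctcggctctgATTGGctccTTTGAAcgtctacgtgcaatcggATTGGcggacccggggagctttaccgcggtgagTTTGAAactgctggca
Mki67: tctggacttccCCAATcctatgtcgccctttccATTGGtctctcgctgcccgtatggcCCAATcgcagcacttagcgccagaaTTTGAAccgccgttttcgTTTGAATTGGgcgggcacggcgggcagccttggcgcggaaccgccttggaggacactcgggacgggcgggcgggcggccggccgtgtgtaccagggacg
Kif22: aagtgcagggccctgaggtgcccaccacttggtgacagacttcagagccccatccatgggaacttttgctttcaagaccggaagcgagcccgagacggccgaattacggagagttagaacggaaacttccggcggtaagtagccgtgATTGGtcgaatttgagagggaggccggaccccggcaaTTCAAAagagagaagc
Cdk1 holds 2 of each element, Mki67 2 of the first and 4 of the second, with 1 TTTGAA overlapping an ATTGG, and Kif22 1 of each.

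Over the 300-base windows of the promoter table, on both strands, TTTGAA was found in 23 of the 34 mitosis genes with a promoter entry (67.6%), 1 of 27 DNA replication genes (3.7%) and 18.1% of all 27457 promoters. CCAAT was found in 76.5%, 55.6% and 37.7% of the same sets. Of the 23 rising genes with an entry, 5 held TTTGAA (21.7%) and 12 held CCAAT (52.2%). These are matches of letters and say nothing of binding.

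Ccnb2, a B-type cyclin that activates Cdk1, was at 6.82, 7.04, 7.01, 6.73 and 6.08 in nodules and at 4.87, 5.46 and 6.24 (lowest, median, highest) in surrounding liver. Only nodule 5 overlapped the surrounding range, and the rise was 1.18 ± 0.23 (adjusted p = 0.0397). Kif20a, a kinesin of cell division, was at 6.82, 6.80, 6.31, 6.32 and 5.77 against 4.62, 5.16 and 6.0. It rose by 1.04 ± 0.21 (adjusted p = 0.0483), and the nodules of animal 11 were only 0.36 and 0.38 above their own array, whose level of 5.94 was the second highest of the surrounding liver. Kif22, a chromosome-binding kinesin, rose by 0.79 ± 0.16, with nodules at 5.00 to 5.81 and surrounding arrays at 4.47 to 5.22. Zwilch, part of the kinetochore complex of the spindle checkpoint, rose by 0.86 ± 0.16 with no overlap (4.52 to 5.43 against 3.78 to 4.42). Cep78, a centrosome protein, rose by 0.76 ± 0.14, and E2f5, a cell cycle transcription factor, by 0.61 ± 0.13, both without overlap of the groups.

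**Figure D1:**
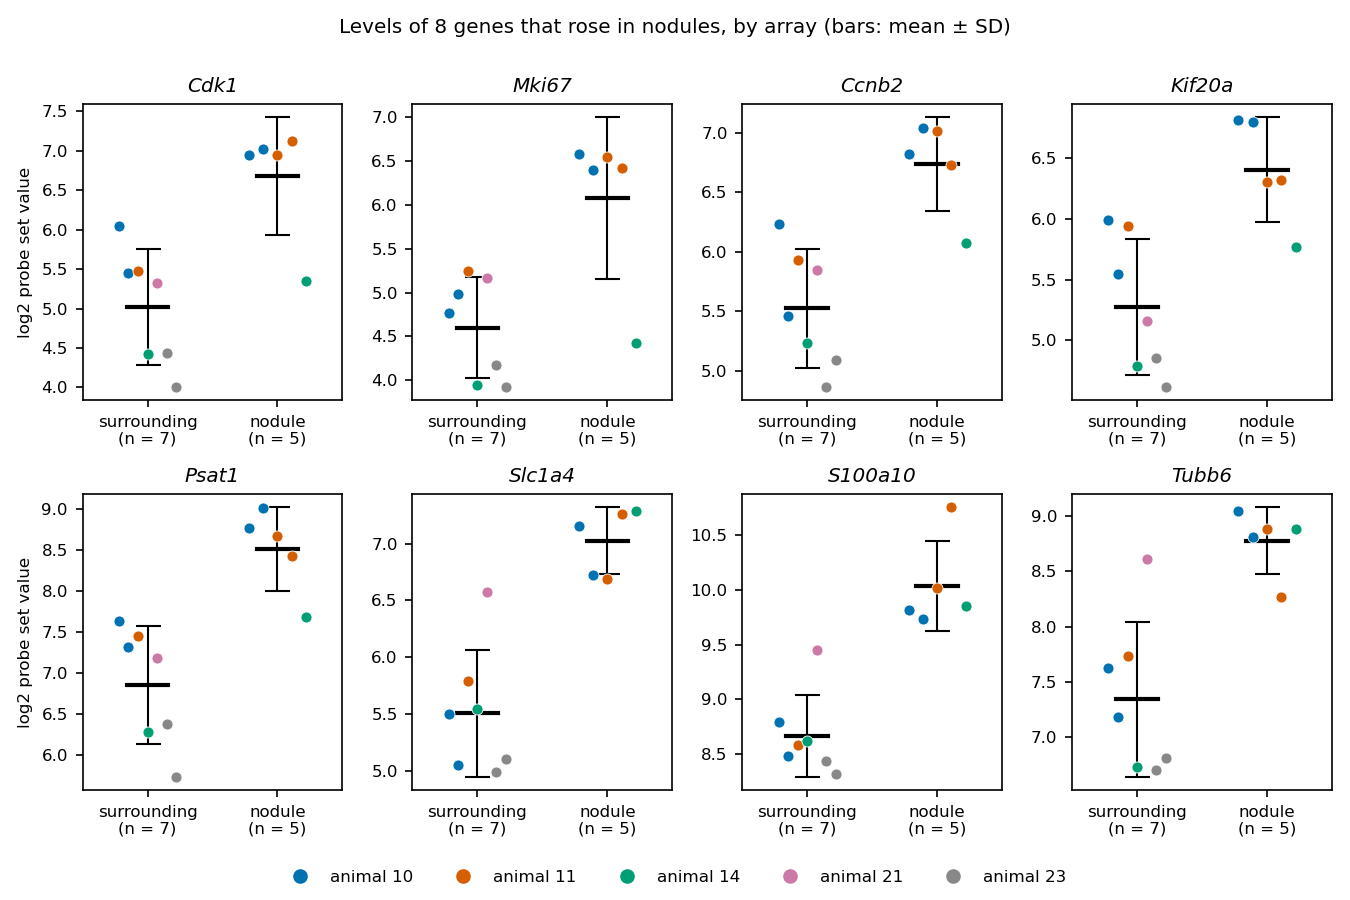
Log2 probe set values (vertical axes) of 8 genes that rose, in 7 surrounding liver arrays and 5 nodules. Each point is 1 array coloured by animal, and black bars are mean ± SD. Nodule 5 (animal 14) is low in Cdk1 and Mki67 but not in Slc1a4 or Tubb6, and the surrounding array of animal 21 is the highest of its group in Slc1a4, S100a10 and Tubb6.

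A list of 47 mitosis genes had 40 on the array. Of these 4 rose in the main fit (Cdk1, Mki67, Ccnb2, Kif20a), 31 had an unadjusted p under 0.05 upward and 0 downward, against 7.77% and 4.97% of all genes. Their median change was 0.68, beside 0.02 over all genes tested, and 39 of the 40 changes were above 0, against 54.1% of all genes. In the 12-array fit 12 of the 40 passed upward, against 0.985% of all genes (0.513% downward). The counts of all lists below are to be set beside the same shares. They included Cdkn3, a phosphatase of cyclin-dependent kinases (1.22 ± 0.16), Ect2 (1.14 ± 0.17) and Racgap1 (1.05 ± 0.19), which act in cytokinesis, and the cyclin gene Ccna2 (0.98 ± 0.20). The median difference of the list from the own array was 0.72 and 0.76 in nodules 1 and 2, 0.45 and 0.43 in nodules 3 and 4, and 0.19 in nodule 5. The mean level of the list was 5.95 to 6.07 in nodules 1 to 4 and 5.08 in nodule 5, where surrounding liver ranged from 4.62 to 5.45.

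No gene of the DNA replication list passed. Of 30 measured, 0 passed in the main or the 12-array limma fit. An unadjusted p under 0.05 upward was found in 16, against 7.77% of all genes, and the median change was 0.39. Mcm6, a subunit of the replicative helicase, was the nearest to the threshold. It was at 6.53, 6.92, 7.11, 7.98 and 5.89 in nodules against 5.09, 5.68 and 6.42 in surrounding liver, with a change of 1.15 ± 0.26 (adjusted p = 0.0607). The median of the list lay 0.10, 0.30, 0.35 and 0.55 above the own array in nodules 1 to 4 and differed from it by -0.07 in nodule 5. Among 18 p53 targets and cell cycle inhibitors 0 passed (1 upward and 1 downward at an unadjusted p under 0.05), with a median of -0.03.

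Psat1, which makes the serine precursor phosphoserine, was among the largest rises. It was at 8.76, 9.0, 8.67, 8.42 and 7.68 in nodules and at 5.74, 7.18 and 7.63 in surrounding liver, so the groups did not overlap. It rose by 1.47 ± 0.25 (2.78-fold, adjusted p = 0.0315), and the differences from the own array were 1.13, 1.37, 1.22, 0.97 and 1.40. Nodule 5, low in mitotic genes, had the largest of these. Slc1a4, a carrier of serine and alanine, had the largest rise of all called genes, 1.69 ± 0.35 (3.22-fold, adjusted p = 0.0483). Its nodules stood at 7.15, 6.72, 6.69, 7.26 and 7.29, all above the surrounding arrays (4.99, 5.50 and 6.58), of which that of animal 21 was the highest.

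Phgdh, the first enzyme of serine synthesis, was at 7.08, 7.35, 8.10, 7.68 and 6.05 in nodules and at 4.99, 5.89 and 6.34 in surrounding liver. Its change of 1.35 ± 0.38 did not pass in the main fit (adjusted p = 0.127), where adenomas and carcinomas share in the estimate of spread, and the 12-array fit gave 1.29 ± 0.14 (adjusted p = 0.00392). All nodules were above their own array, by 1.06 to 1.76. The other members of the pathway did not pass. Of 24 serine and one-carbon genes 1 rose, Psat1, and the median was -0.14. In every nodule 11 members were below the own array and 3 above, against 11.3% and 9.16% of all genes. Sds, which breaks serine down, had a change of -1.47 ± 0.63 (adjusted p = 0.328) and differed from the own array by -0.28 to -2.62.

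Of 32 ATF4 targets 2 rose, Psat1 and Slc1a4, and the median was 0.05. In the 12-array fit 5 passed upward and 1 downward, against 0.985% and 0.513% of all genes. Asns, asparagine synthetase, stood at 1.16 ± 0.23 there (adjusted p = 0.0377), with nodule 3 at 7.60 the highest of all 12 arrays. Atf5 was the member that passed downward (-0.57 ± 0.12). The stress gene Sesn2, another target, was below the own array in all nodules (change -0.38 ± 0.13, adjusted p = 0.22).

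Among 34 amino acid transporters 1 rose, Slc1a4, and 1 fell, the glutamine carrier Slc38a3. Slc38a3 was at 10.66, 10.91, 11.28, 10.81 and 10.93 in nodules against 11.03, 11.35 and 11.63, an overlap made by nodule 3 alone, and fell by 0.57 on the log2 scale (SE 0.11, adjusted p = 0.0398). Slc7a11, which imports cystine for glutathione, had a change of 2.68 ± 0.62 that missed the main threshold (adjusted p = 0.0695) and one of 2.65 ± 0.33 in the 12-array fit (adjusted p = 0.00634). It was at 9.03, 8.13, 8.05, 7.65 and 8.93 in nodules, 1.55 to 3.61 above the own arrays. The surrounding array of animal 21 at 7.98 was the only one to reach the nodules, the other 6 lying at 4.85 to 6.45. The leucine carrier Slc43a1, the carrier Slc6a13 and the mitochondrial aspartate-glutamate carrier Slc25a13 passed downward in the 12-array fit (-1.0, -1.08 and -0.40).

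Sms, which makes the polyamine spermine, rose by 0.95 ± 0.19, and Ctps1, which makes CTP, by 0.91 ± 0.18. Both groups of values were separate, at 7.29 to 8.24 against 6.68 to 7.25 for Sms and at 7.31 to 7.67 against 6.21 to 7.30 for Ctps1. A further probe set of Ctps1 went in the other direction. Nop16, a nucleolar protein of ribosome assembly (9.11 to 9.40 against 8.44 to 8.76), and Nup205, a component of the nuclear pore (8.62 to 8.82 against 7.75 to 8.41), each rose by 0.65 without overlap (SE 0.13 and 0.12). Dtd1, which clears mischarged transfer RNA, rose by 0.51 ± 0.09, also without overlap.

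The list of NRF2 targets had a median above the own array in every nodule, nodule 5 included. Tkt, the transketolase of the pentose phosphate pathway, was at 11.50, 11.36, 11.95, 11.78 and 11.35 in nodules and at 10.26, 10.44 and 11.37 in surrounding liver. It rose by 0.85 ± 0.17 (adjusted p = 0.0397), and the surrounding array of animal 11, whose nodules were also the highest, was the only one to reach the nodules. Ugdh, which makes the sugar donor for glucuronidation, was at 12.69, 12.54, 12.29, 12.30 and 12.65 against 11.58, 11.70 and 12.39 and rose by 0.78 ± 0.15 (adjusted p = 0.0315). Here the array of animal 21 was the one that overlapped.

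Of 26 measured NRF2 targets these 2 passed in the main limma fit, and the median change was 0.66. An unadjusted p under 0.05 was found in 17 upward and 0 downward, against 7.77% and 4.97% of all genes. In 19 of the targets every nodule was above its own array, against 9.16% of all genes. In the 12-array fit 13 passed upward and 0 downward, against 0.985% and 0.513% of all genes. Gclc, which catalyses the slowest step of glutathione synthesis, stood at 1.15 ± 0.15 in that fit, Srxn1, which repairs peroxiredoxins, at 1.29 ± 0.16, the thioredoxin reductase Txnrd1 at 0.91 ± 0.12 and the quinone reductase Nqo1 at 0.92 ± 0.14. For Gclc the nodules were at 12.46, 12.21, 12.03, 11.98 and 12.61 and the surrounding arrays at 10.83, 11.10 and 11.97, so the groups did not overlap, by a narrow margin. The median of the list lay 0.57, 0.61, 0.51, 0.51 and 0.87 above the own array in nodules 1 to 5. By this difference nodule 5 was the lowest in the mitosis list and the highest in this one, and its own array had the lowest NRF2 list mean of the 3 own arrays (9.77 against 10.04 and 10.06). By mean level of the list nodule 1 was the highest, at 10.74 against 10.72 in nodule 5. Prdx2, a peroxiredoxin not on the list, rose by 0.48 ± 0.09 and did not overlap (11.02 to 11.28 against 10.38 to 10.78).

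**Figure D2:**
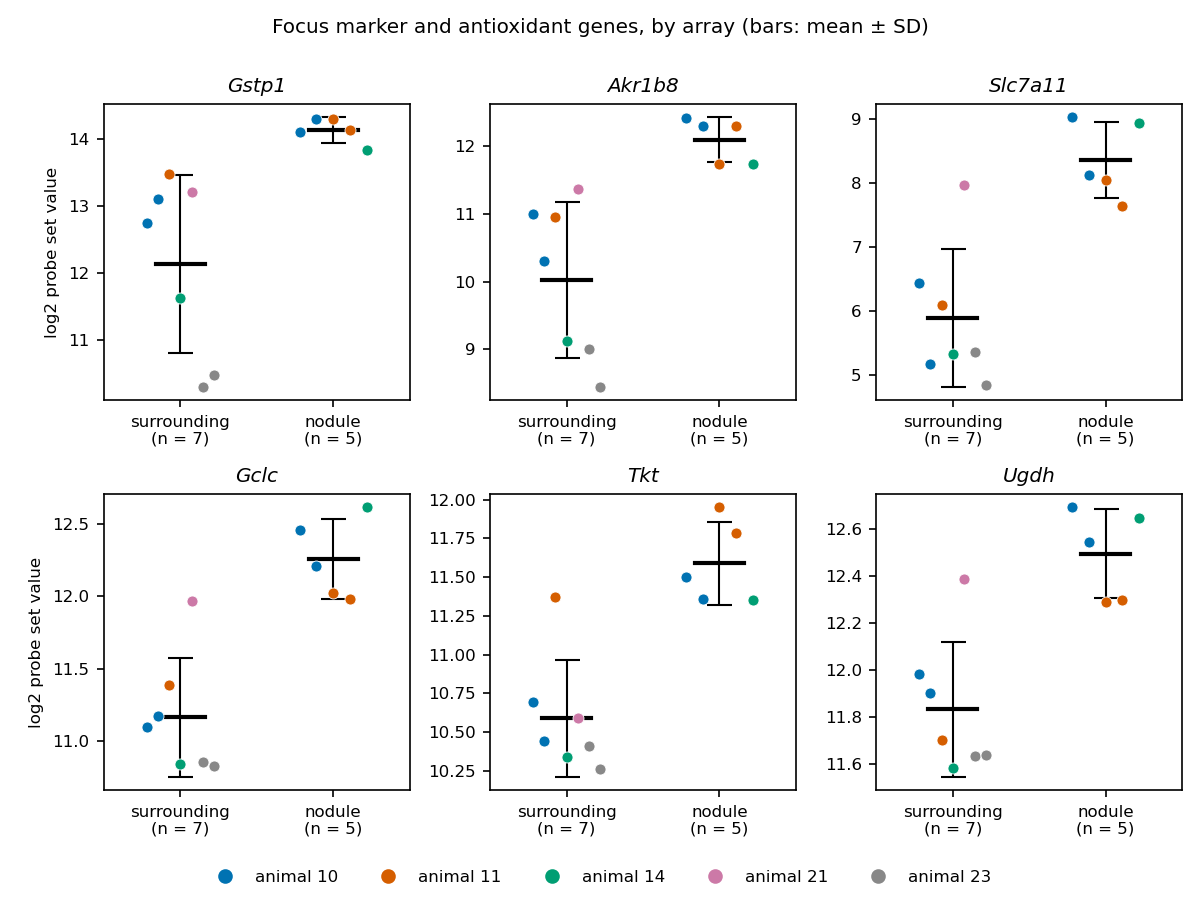
Log2 probe set values (vertical axes) of the focus markers Gstp1 and Akr1b8 and of 4 antioxidant or sugar-metabolism genes in 7 surrounding liver arrays and 5 nodules. Points are arrays coloured by animal, and black bars are mean ± SD. All Gstp1 nodule points lie at 13.84 to 14.30, above surrounding points that spread from 10.30 to 13.47.

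Gstp1, the glutathione transferase used to stain these lesions, was at 14.11, 14.30, 14.30, 14.14 and 13.84 in nodules and at 10.30, 12.74 and 13.47 in surrounding liver. All nodules were above all surrounding arrays, and the surrounding arrays of animals 10, 11 and 21 (12.74 to 13.47) were more than 1 above those of animals 14 and 23 (10.30 to 11.63). The change was 1.56 ± 0.34 (2.96-fold) and missed the main threshold (adjusted p = 0.0532), and the 12-array fit gave 1.33 ± 0.18 (adjusted p = 0.00925). Ggt1, the other classical focus marker, stood at 9.69, 9.81, 9.48, 9.20 and 9.62 against 8.17, 8.90 and 9.29. Its change was 0.74 ± 0.62 (adjusted p = 0.679) with the tumours in the fit and 0.80 ± 0.16 (adjusted p = 0.0373) without them. The sizes were alike and the errors were not.

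Of 22 measured foci and oncofetal markers 0 passed in the main limma fit. At an unadjusted p under 0.05 there were 8 upward and 1 downward, against 7.77% and 4.97% of all genes. In the 12-array fit 8 passed upward, against 0.985% of all genes. The median change was 0.69. The 12-array calls included the aldo-keto reductase Akr1b8 (1.72 ± 0.24), the antimicrobial peptide Defb1 (1.98 ± 0.34), the calmodulin-binding Pcp4 (1.74 ± 0.19), the annexin Anxa2 (1.82 ± 0.25) and the transcription factor Sox4 (0.86 ± 0.18). Of 7 probe sets of Sox4, 5 went upward and the others downward, with plain differences of -0.12 to 0.80, the one used being the highest. A further probe set of Anxa2 differed by 0.25 between the plain group means, against 1.85 for the one used. Akr1b8 was at 12.41, 12.30, 11.73, 12.30 and 11.74 in nodules, all above surrounding liver (8.45, 10.30 and 11.36). The fetal liver genes Afp, Igf2 and H19 did not pass, at 0.07, -0.17 and 0.19 (adjusted p = 0.688 to 0.972). The fetal proteoglycan gene Gpc3 was at 7.64 in nodule 4, 5.05 in nodule 3 and 3.36 to 4.14 in the other nodules, where surrounding liver lay between 3.46 and 4.38.

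S100a10, the partner of Anxa2 at the cell membrane, rose by 1.28 ± 0.22 (2.44-fold, adjusted p = 0.0315). It was at 9.82, 9.73, 10.02, 10.75 and 9.86 in nodules and at 8.32, 8.58 and 9.45 in surrounding liver, with no overlap, nodule 4 being the highest of its group and animal 21 of the other. Anxa2 was at 10.02, 9.59, 9.94, 11.41 and 10.07 against 7.86, 8.19 and 9.54, again without overlap, and missed the main threshold (1.64 ± 0.36, adjusted p = 0.0532). Of 28 annexins, S100 proteins and galectins S100a10 alone rose, and 4 passed in the 12-array fit, among them Anxa7 (0.86 ± 0.08) and Anxa5 (0.98 ± 0.14). The list median was 0.09, and it lay 0.76 above the own array in nodule 4, the nodule with biliary and stromal markers, and 0.08 to 0.22 above in the others. The part of those cells in the list was not tested. Anxa7 differed from the own array by 0.84 to 0.98 in all 5 nodules.

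Tubb6, a beta-tubulin, rose by 1.54 ± 0.28 (2.91-fold, adjusted p = 0.0315), the second largest rise. It was at 9.05, 8.81, 8.88, 8.27 and 8.89 in nodules, and the surrounding array of animal 21 (8.61) was the only one to overlap them, the others lying at 6.70 to 7.74. A further probe set of Tubb6 differed by only 0.06 between the plain group means, against 1.44 for the one used. Tubb4b rose by 0.48 ± 0.10 (10.96 to 11.31 against 10.48 to 11.35). Of 25 tubulin and actin cytoskeleton genes these 2 rose and 0 fell, with a median of 0.00, and Tubb2a and Tubb5 also passed in the 12-array fit (0.78 and 0.60).

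The remaining rises belong to none of the lists. Ica1, the islet cell autoantigen, had the lowest adjusted p of the comparison (0.00816). It was at 6.95, 6.82, 7.16, 6.94 and 6.58 against 5.36, 5.64 and 6.41 and rose by 1.04 ± 0.15 with no overlap. Tusc3, a subunit of the oligosaccharyltransferase (7.53 to 8.49 against 6.33 to 7.38), rose by 1.02 ± 0.20, and the kinase gene Cdkl2 (6.10 to 6.60 against 5.09 to 5.73) by 1.07 ± 0.18, both without overlap. Ttc39a rose by 1.10 ± 0.21 (6.48 to 7.36 against 5.69 to 6.51), Mid2, a microtubule-associated ubiquitin ligase, by 0.69 ± 0.14 and Gnpat, which starts the making of ether lipids in peroxisomes, by 0.44 ± 0.09. A further probe set of Mid2 went in the other direction.

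The 5 falls were small. Psmd3, a subunit of the cap of the proteasome, was at 7.77, 8.02, 7.92, 7.77 and 7.99 in nodules and at 8.36, 8.60 and 8.90 in surrounding liver. The groups were separate, and it fell by 0.63 on the log2 scale (SE 0.10, adjusted p = 0.03). The other 35 measured proteasome subunits held 0 calls and the list median was -0.01. Hyal3, a member of the hyaluronidase family, was at 7.46, 7.57, 8.14, 7.54 and 7.94 against 8.15, 8.51 and 9.23 and fell by 0.82 (SE 0.17, adjusted p = 0.0483). Nodule 3 and the array of animal 21 lay next to each other at the border of the groups.

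Ncstn, nicastrin, the substrate receptor of gamma-secretase, was at 7.91, 7.69, 7.82, 8.0 and 7.75 in nodules and at 8.06, 8.29 and 8.46 in surrounding liver. It fell by 0.47 on the log2 scale (SE 0.10, adjusted p = 0.0483), again without overlap. The other 3 measured subunits did not pass, and all 4 were below the own array in every nodule. In Ncstn, Psen2 and the mean of the 4 subunits, as in Psmd3, the 3 highest surrounding arrays were 2, 5 and 7, those with high Cebpa. Without these 3 arrays Ncstn stood at -0.40 (adjusted p = 0.255) and Psmd3 at -0.53 (adjusted p = 0.137) in the fit of the remaining frozen arrays. In the main fit, which holds these 3 arrays, the catalytic subunit Psen2 stood at -0.41 ± 0.16 (adjusted p = 0.278). Aph1a stood there at -0.20 ± 0.09 (adjusted p = 0.379). Abhd1, an alpha/beta hydrolase, was at 6.98, 7.21, 7.41, 6.76 and 7.40 against 7.58, 7.94 and 8.13 and fell by 0.72 (SE 0.15, adjusted p = 0.0417).

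Genes of mature hepatocyte function had medians below 0 and no call in the main fit. Of 17 male-predominant liver genes, which depend on pulsed growth hormone, 17 had changes below 0, with a median of -0.89. The main limma fit called 0 (2 downward at an unadjusted p under 0.05), and the 12-array fit called 4 downward, against 0.513% of all genes. The 4 were Avpr1a, the vasopressin receptor of pericentral hepatocytes (-1.17 ± 0.25), the methyltransferase gene Inmt (-1.35 ± 0.26), the aldo-keto reductase Akr1c1 (-1.07 ± 0.17) and the dehydrogenase gene Dhrs7l1 (-1.41 ± 0.28). Akr1c1 was at 8.34, 7.58, 7.62, 7.42 and 9.08 in nodules, with differences from the own array of -0.68 to -1.89. For Obp3, an odorant-binding protein made by male rat liver, nodules 1 to 4 lay at 4.22 to 5.53 and nodule 5 at 11.99, with the own arrays at 6.94, 5.50 and 12.69 for animals 10, 11 and 14. The levels thus followed the animal, and the differences from the own array were between -0.18 and -1.57.

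Of 19 periportal genes 0 passed in the main limma fit (0 upward and 3 downward at an unadjusted p under 0.05), with a median of -0.27, and Pck1, which controls glucose synthesis, passed downward in the 12-array fit (-0.68 ± 0.12). Of 19 pericentral and Wnt target genes 0 passed in either direction (0 at an unadjusted p under 0.05), with a median of -0.43, and the 12-array fit called the ornithine aminotransferase Oat (-0.75 ± 0.13) and Avpr1a. The Wnt targets Glul, Axin2 and Lgr5 had changes of -0.39, -0.42 and 0.06. Glul was above the own array in nodules 1 and 4 and below it in the others. Bile acid genes had a median of -0.31 over 22 members and acute phase genes one of -0.25 over 21, all 21 below 0. Both lists held 0 main calls (0 and 3 downward at an unadjusted p under 0.05) and 2 downward in the 12-array fit, Amacr and Slco1a4 for bile acids and Apcs and Itih4 for the acute phase. The 3 members of the acute phase list with the lowest p, Serpina3n, Hpx and Itih3, had changes of -0.58, -0.39 and -0.31 in the main fit, and Serpina3n and Hpx were at their highest in surrounding arrays 2, 5 and 7.

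The lists of fatty acid and cholesterol genes held no call in the main fit. Elovl6 and Scd, which lengthen and desaturate fatty acids, had the largest changes of the fatty acid synthesis list, 1.76 ± 0.50 (adjusted p = 0.129) and 1.32 ± 0.50 (adjusted p = 0.256). Elovl6 passed in the 12-array fit (1.50 ± 0.30), and its nodules were at 8.92, 9.80, 10.53, 9.32 and 8.63 against 7.02, 7.33 and 9.19. The median over the 20 genes was -0.05. Cholesterol synthesis (20 genes) and fatty acid oxidation (21 genes) both had medians of -0.12 with 0 calls in the main limma fit (4 and 5 downward at an unadjusted p under 0.05), and the carnitine transferase gene Cpt1a passed downward in the 12-array fit (-0.44 ± 0.08). Glycolysis had 0 calls (0 at an unadjusted p under 0.05) and a median of 0.06. Of 22 phenobarbital-responsive genes 0 passed (2 upward and 2 downward at an unadjusted p under 0.05), with a median of -0.08. Of 23 immediate early genes 0 passed (1 upward and 4 downward at an unadjusted p under 0.05), with a median of -0.11. Myc was the one that passed upward in the 12-array fit (0.56 ± 0.10).

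**Figure D3:**
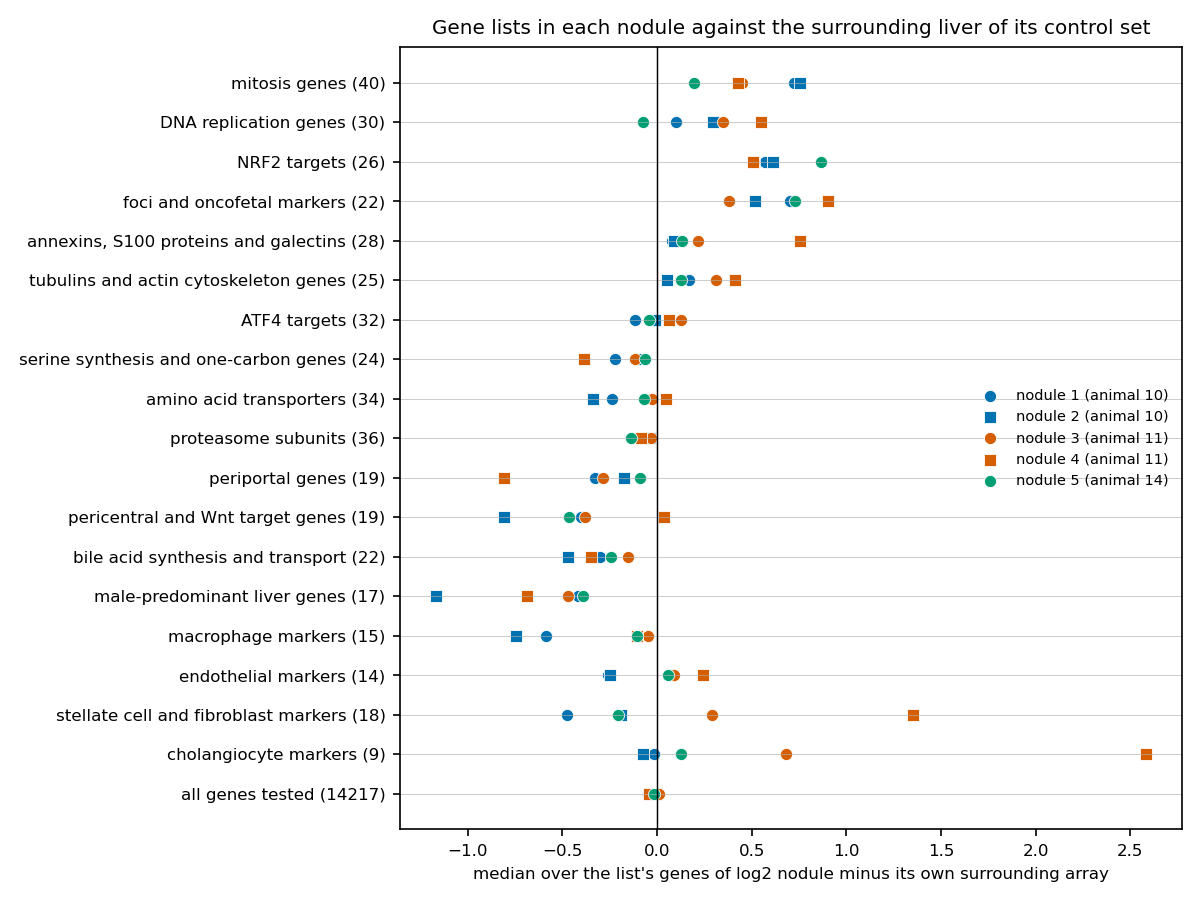
Median over the genes of each list of the log2 difference between a nodule and the surrounding array of its own control set (horizontal axis). Rows are lists with the number of measured genes, points are nodules coloured by animal. Nodule 5 has the lowest mitosis value (0.19) and the highest NRF2 value (0.87), and nodule 4 stands at 2.58 for cholangiocyte and 1.35 for stellate cell markers.

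Markers of other cell types were read in the same arrays, and in such bulk tissue fewer cells of a type and less RNA per cell cannot be told apart. All 15 macrophage markers had changes below 0, with a median of -0.47. None was called in the main limma fit, and 0 passed in the 12-array fit. In the main fit 7 had an unadjusted p under 0.05 downward, against 4.97% of all genes. The mean level of the list was 8.37 to 8.77 in nodules and 8.71 to 9.13 in surrounding liver. Clec4f, which marks Kupffer cells, was at 10.01, 10.03, 10.42, 9.87 and 10.51 against 10.42, 10.71 and 11.05 (change -0.77 ± 0.27, adjusted p = 0.222). The medians against the own array were -0.59 and -0.75 in animal 10 and -0.05 to -0.11 in the other nodules. The part of these cells in the other results was not tested.

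Nodule 4 stood apart in biliary and stromal markers. Krt19 was at 7.66, 7.31, 7.35, 10.60 and 7.85 in nodules and at 4.58, 5.60 and 7.64 in surrounding liver, and Krt7, another biliary keratin, at 4.02, 4.17, 5.09, 7.85 and 4.22 against 3.89 to 4.38. The collagen genes Col1a1 and Col3a1 were at 8.31 and 12.21 in nodule 4, and at no more than 6.15 and 10.44 in the other nodules. Nodule 3, from the same animal, was the next highest nodule in Krt7, Gpc3, Col1a1 and Col3a1. The mean level of 9 cholangiocyte markers was 7.98 in nodule 4, 6.03 to 6.28 in the other nodules and 5.51 to 6.24 in surrounding liver. The median difference of 18 stellate cell and fibroblast markers from the own array was 1.35 in nodule 4 and -0.48 to 0.29 in the others. The main limma fit called 0 of these 27 markers (1 upward and 1 downward at an unadjusted p under 0.05). In the 12-array fit 1 of the 9 cholangiocyte markers passed upward, against 0.985% of all genes, and 0 of the 18 others. In all 5 nodules 3 cholangiocyte markers and 0 of the others were above the own array, against 9.16% of all genes. Without nodule 4 the main fit called 4 rises and 1 fall, and the 12-array fit 200 rises and 91 falls.

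**Figure D4:**
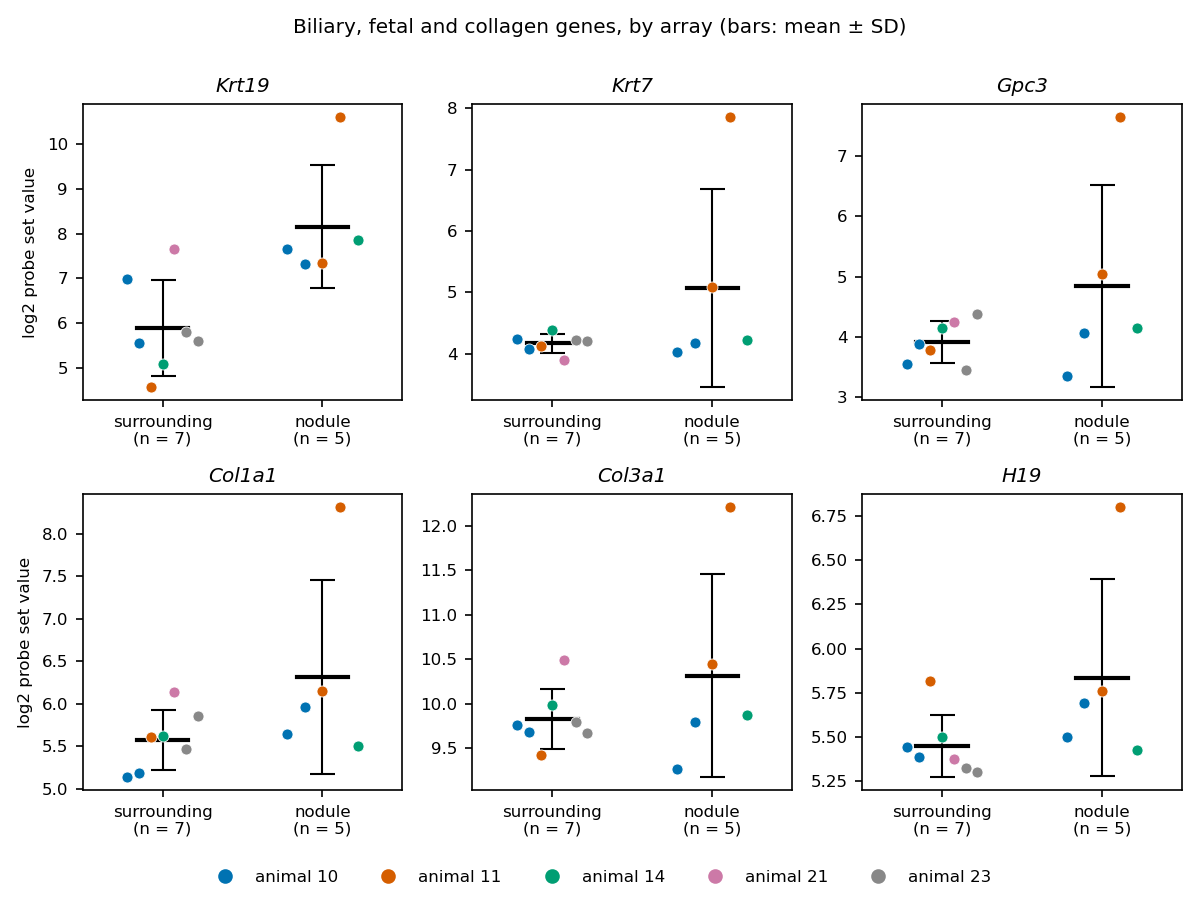
Log2 probe set values (vertical axes) of biliary (Krt19, Krt7), fetal (Gpc3, H19) and collagen (Col1a1, Col3a1) genes in 7 surrounding liver arrays and 5 nodules. Points are arrays coloured by animal, and black bars are mean ± SD. In all 6 panels the highest point is nodule 4 of animal 11.

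The other marker lists held no call in the main fit. Endothelial (14), lymphocyte (17), neutrophil (9) and blood cell markers (10) had medians of -0.16, -0.09, 0.03 and -0.20 and 0 calls in the main limma fit (0, 1, 0 and 3 downward and 0 upward at an unadjusted p under 0.05). Hepatocyte markers (13) had a median of -0.16 and 0 calls (2 downward at an unadjusted p under 0.05), and Hnf4a, the central hepatocyte factor, was at 11.45 to 11.87 in nodules and 11.61 to 11.79 in surrounding liver. S100a8 and S100a9, made by neutrophils, followed the animal: in animal 11 they were at 9.35 and 10.38 in surrounding liver and at 8.70 to 9.51 and 10.02 to 10.78 in nodules, against 4.57 and 5.76 in nodule 5.

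The number of calls depended on the fit. The 12-array fit called 140 rises and 73 falls, 48 and 9 of them at least 2-fold, and shared 21 rises and 2 falls with the main fit. Its median residual SD was 0.186, beside 0.202 over the 26 arrays, and 61% of genes had the larger SD with the tumours in the fit. Its largest rise was that of Klhl14 (2.82 ± 0.57), at 9.06, 8.11, 7.23 and 8.39 in 4 nodules but 4.49 in nodule 3, against 3.97 to 6.19 in surrounding liver. Others outside the lists were Bend5 (1.86 ± 0.28), the elastase Mmp12 (1.66 ± 0.21) and the chymotrypsin gene Ctrc (1.74 ± 0.26). Falls outside the lists were those of the potassium channel gene Kcnj15 (-1.30 ± 0.25), the phosphatase gene Mtmr7 (-1.26 ± 0.22), Tpd52l1 (-1.20 ± 0.16) and the ficolin Fcna (-0.96 ± 0.12). Fcna was at 7.52 to 7.74 in nodules and 7.89 to 8.85 in surrounding liver. Without nodule 1, 2 or 5 or surrounding array 1, 2 or 4 the 12-array fit called between 54 and 67 rises and between 14 and 27 falls. Without surrounding array 3, 6 or 7 it called between 34 and 40 falls.

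In the matched fit, with the control set as block, 0 genes passed in limma (1200 genes, 8.44%, at an unadjusted p under 0.05). All 32 called genes kept their sign there with an unadjusted p under 0.05, at adjusted p = 0.113 to 0.266. Cdk1 stood at 1.18, Mki67 at 1.16, Psat1 at 1.32 and Slc1a4 at 1.55. A fit of the 5 nodules and their 3 own surrounding arrays called 21 genes (0.148%), of which 4 were among the 32: Psat1, Slc1a4, Cdk1 and Ugdh (adjusted p = 0.0154 to 0.0443). Without nodule 1 or 2 the main fit called 0 genes, without nodule 5 it called 3 rises and 1 fall, and without surrounding array 2, 3, 6 or 7 it called 1, 8, 6 or 11 rises. Without surrounding arrays 2, 5 and 7 together it called 1 rise, Ica1 (0.96, adjusted p = 0.0434), and 0 falls. All 32 kept their direction in each of these fits. The 32 were called from arrays that these fits share, so kept signs and low p-values follow in part from that choice. They are no separate support.

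**Figure D5:**
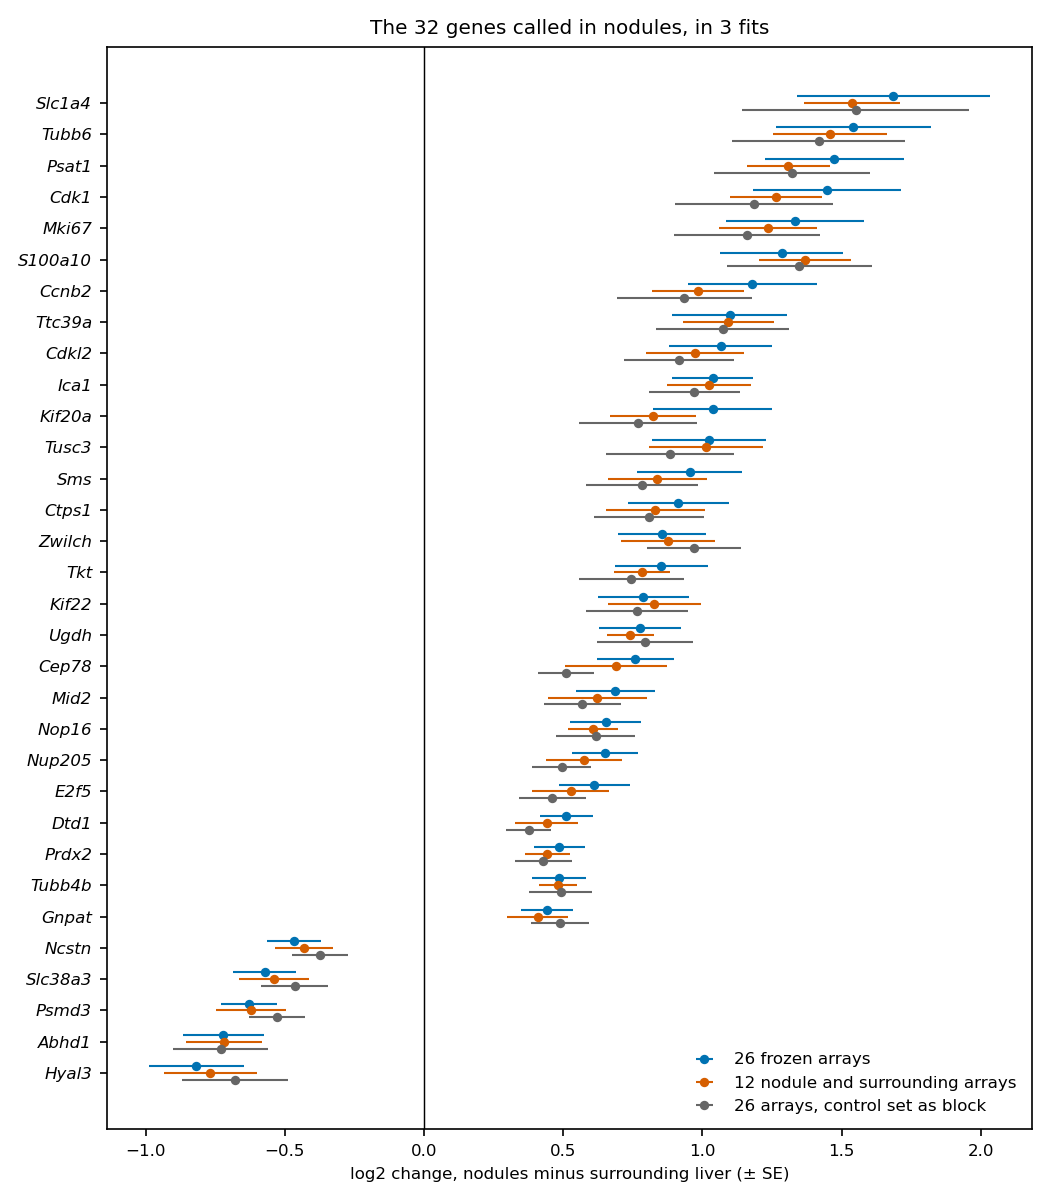
Log2 change between nodules and surrounding liver ± SE (horizontal axis) of the 32 called genes (rows) in the fit of 26 frozen arrays, in that of the 12 nodule and surrounding arrays, and with the control set as block. All points of a gene lie on the same side of 0, and in the 12-array fit Slc1a4 and Psat1 have errors of 0.17 and 0.15 in place of 0.35 and 0.25.

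Nodules were also compared with each other. The correlation across genes of their differences from the own array was 0.65 for nodules 1 and 2 and 0.553 for nodules 3 and 4, pairs that also share that array, and 0.0734 to 0.419 for the other 8 pairs. Genes are not independent replicates, so these values describe the arrays. The SD over genes of the difference between nodules was 0.302 for the pair of animal 10 and 0.468 for that of animal 11. For the 8 pairs of different animals it was 0.335 to 0.597, and 5 of these lay below the value for animal 11. All 4 pairs that hold nodule 4 had an SD of at least 0.468, so nodules of one animal were not always the closest.

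Frozen adenomas were set against the nodules in the main fit, although only animal 14 has both. No gene passed in limma (2265 genes, 15.9%, at an unadjusted p under 0.05, lowest adjusted p 0.0638). Of the 27 genes that rose in nodules 26 had a fitted difference above 0 in adenomas minus nodules. Of the 5 that fell 4 had one below 0, among them Psmd3 at -0.00. The share of all genes on each side of 0 was not counted, and the comparison shares the nodule arrays with the choice of these genes. For Cdk1 the difference was 1.43 ± 0.32 and for Mki67 1.23 ± 0.29 (adjusted p = 0.0751 and 0.0844), with adenomas at 6.79 to 7.81 and 6.31 to 6.75. In both genes the plain ranges of adenomas and of nodules 1 to 4 overlapped. Plain means were 7.25 in adenomas and 6.68 in nodules for Cdk1, and 6.57 and 6.07 for Mki67, closer than the fitted differences. Nodule 5, the only nodule of animal 14, was the lowest nodule in both genes. Its weight in the fitted differences was not tested. Psmd3, Nop16, Sms and Cep78 differed from nodules by -0.00, 0.13, 0.14 and -0.04 in adenomas, with adjusted p = 0.713 to 0.999.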

How the data were processed

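Values are log2 probe set summaries of single-colour Affymetrix rat arrays, used as deposited by the authors. Their background correction, normalization and summarization are not given in the sources used here. Per the labels' protocols, RNA of frozen tissue came from TRIzol followed by miRNeasy columns, and labelling by the 3′ IVT Express kit started from 250 ng. Of 31042 probe sets 20826 had 1 gene symbol in the platform annotation, 436 had several and 9780 none. Those with several symbols or none were left out, and each of 14217 genes was represented by its probe set with the highest mean. Arrays give no counts, so their number limits the precision.

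Fits used limma 3.58.1 in R 4.3.3 with an intensity trend, group and animal as fixed terms, and Benjamini-Hochberg adjustment over all genes. The animal, taken from the sample title, pairs the arrays, since each nodule has surrounding liver of its own rat. Over the 7 such pairs of arrays, deviations from group means correlated at a median r of 0.289, and over 28 pairs of different rats at -0.0768. Arrays titled normal entered no comparison.

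Members, markers and the 33 gene lists (615 genes measured) were chosen with earlier results of these data known. Named are all called genes, the markers Cdk1, Mki67, Psat1 and Slc1a4, Gstp1 and Ggt1, and in each list the called members, the 3 with the smallest unadjusted p and those that define a cell type. List members that passed in the 12-array fit and the largest changes of that fit were named after their values were seen. Among 173 named genes 5 had opposite signs in the fitted and the plain difference, and 0 of these were called. Alternatives were other blocks, arrays, normalizations, filters and probe set rules, and leaving out each array. The 12-array fit leaving out each of its arrays was added after seeing the data. Labels do not say whether nodules of 1 animal are separate growths, so p-values measure the spread between these samples.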

Additional observations from a re-analysis of the deposited data

Results flagged for a closer look

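In groups of 4 to 10 arrays, 322 sets of values were searched for 1 array far from the others, and 33 were found. Chance marks about 1 in 20 such sets, so some of these are expected by chance. Causes were not tested.

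Nodule 5 was far below the other nodules in Cdk1 (5.34, nearest 6.95), Mki67 (4.43, nearest 6.39), the spindle and hyaluronan receptor gene Hmmr (3.81), the mean level of the mitosis list (5.08, nearest 5.95) and the bicarbonate exchanger Slc4a2 (5.38). It was far above them in Obp3 (11.99, nearest 5.53) and in transthyretin, Ttr (14.28).

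Nodule 4 was far above the other nodules in Krt19 (10.60, nearest 7.85), Krt7 (7.85, nearest 5.09), Col1a1 (8.31, nearest 6.15), Anxa2 (11.41), S100a10 (10.75), H19 (6.80), Lgr5 (3.87) and the mean level of the cholangiocyte markers (7.98, nearest 6.28). It was lowest in the mean level of the proteasome subunits (9.87, nearest 9.91). Single values of other nodules were those of Gnpat in nodule 2 (7.66), the NADPH-producing enzyme gene Me1 in nodule 3 (10.61) and Alb in nodule 1 (15.05, nearest 15.09).

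Among surrounding arrays, that of animal 21 (array 5) was far above the others in S100a10 (9.45), Anxa2 (9.54), the collagen gene Col1a2 (8.24) and the mean levels of the NRF2 targets (10.51, nearest 10.06) and of the tubulin and actin genes (8.71, nearest 8.38). Array 2 was high in the red cell genes Alas2 (8.65) and Slc4a1 (6.18) and low in the lymphocyte gene Klrd1 (3.81). Array 3 was high in Tkt (11.37), H19 (5.81) and the neutrophil gene Camp (4.68). Low values were those of Prdx2 in array 7 (10.4), the cholesterol synthesis gene Sc5d in array 1 (10.86) and the mean level of the pericentral and Wnt target genes in array 6 (8.55).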

How the results depend on the processing

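None of the 32 called genes changed direction under any alternative, though the filter for genes at or above the median level held only 21 of them. The alternatives reuse arrays from which the 32 were called, so the kept directions are no separate support. The counts of calls moved, and the cause was not tested. Against 27 rises and 5 falls, the replicate block by control set gave 0 and 0, no animal block 69 and 24, only the 12 arrays 140 and 73, these with a random block 207 and 97, and the 8 arrays of the own control sets 16 and 5. Leaving out the beta-catenin carcinoma whose labels disagree gave 41 rises, array weights 389 and 152, quantile normalization 16 and 2, and median centring 8 and 1. Falls were 9 with genes above the median level, and 3 with the mean of probe sets or the most variable probe set. Without 1 array of the 26 there were 0 to 66 rises and 0 to 15 falls: 0 and 0 without nodule 1 or 2, 1 and 0 without surrounding array 2, 12 and 1 without carcinoma 1, 17 and 2 without beta-catenin carcinoma 2, 66 and 15 without adenoma 3 and 47 and 12 without beta-catenin carcinoma 4. Without nodule 3, falls were 8 and without surrounding array 5 they were 2. Without 1 of the 12 arrays the 12-array fit (140 and 73) called 54 to 200 rises and 14 to 92 falls, at most 67 rises without nodule 1, 2 or 5 or surrounding array 1, 2 or 4. For adenomas against nodules (0 and 0), no block gave 198 and 239, array weights 1033 and 628, median centring 1 and 7, the level filter 1 and 2, and leaving out 1 array 0 to 102 and 0 to 112 (adenoma 2 the highest, 46 and 18 without nodule 4). Leaving out surrounding arrays 2, 5 and 7, chosen after seeing the data, gave 1 rise and 0 falls, and 16 and 5 in the 12-array fit. Of 1748 medians of lists under alternatives 95 moved by more than the SD between nodules, 12 of them to the opposite sign. The brightness of each array over background is not given in the files, so no limit on dim genes such as Zwilch or Krt7 can be set.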

Other observations

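The series also holds 2 frozen arrays titled normal, whose other labels call them surrounding tissue, and they entered no comparison. Both came from the same animal, and their labels give the same carcinogen and phenobarbital treatment as the other arrays. They are therefore not replicate animals, and whether they are untreated liver cannot be told from the labels. The genes named here were chosen after their values were seen. In these 2 arrays Gstp1 was at 9.84 and 9.72, Ggt1 at 6.70 and 7.04, Akr1b8 at 7.36 and 7.49, Defb1 at 4.73 and 5.45 and Pcp4 at 6.26 and 6.14. All of these lie below the lowest of the 7 surrounding arrays, which were at 10.30, 8.17, 8.45, 5.49 and 7.55 in the same order. Slc7a11 (3.88 and 4.35), S100a10 (7.94 and 7.94), Anxa2 (7.18 and 7.39) and Tubb6 (6.13 and 6.16) were also below that range.

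Cdk1 (4.80 and 4.86), Mki67 (4.41 and 4.13) and Psat1 (6.53 in both arrays) were within the range of surrounding liver, while Sds (10.52 and 10.43) was above its highest array (10.32). Of the genes that fell in nodules, Psmd3 (8.70 and 8.57), Abhd1 (8.05 and 7.96) and Slc38a3 (11.29 and 11.23) were also within the range of surrounding liver. Ncstn in the second of these arrays (7.98) was below it, at the level of the nodules. Of the male-predominant genes, Obp3 was at 13.56 and 13.34 and Dhrs7l1 at 12.35 and 12.22, above all 12 arrays of nodules and surrounding liver. Inmt (11.75 and 11.78) was also above the surrounding arrays, while Avpr1a (8.50 and 8.57) was within their range. For the male-predominant gene Hsd3b5 the first array (11.52) was within that range and the second (11.62) above it.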
